A study of Mus musculus with 77 samples.

Results

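The class 3 semaphorins and plexins described here are 9 genes on the retina arrays of 77 C57BL/6 mice, namely the secreted ligands *Sema3a*, *Sema3c*, *Sema3e*, *Sema3f* and *Sema3g* and the receptors *Plxna1*, *Plxna2*, *Plxna4* and *Plxnd1*. They were chosen by name, out of 21154 genes with a symbol, and every probe of the array that is not a control and whose transcript carries 1 of these names was taken, which gave 13 probes. Of the mice, 39 had oxygen-induced retinopathy (OIR), meaning that the litter breathed 75% oxygen from postnatal day (P) 7 to P12 and room air thereafter, and 38 were controls kept in 21% oxygen throughout. Retinas were taken on P12 (13 OIR and 12 control mice), P17 (13 and 12) and P28 (13 and 14), both retinas of a mouse were pooled, and their RNA was hybridized with Universal Mouse Reference RNA, a mixture from several mouse cell sources, on a 2-color array. Each litter breathed 1 oxygen level and the labels do not tie mice to litters, so litter and oxygen cannot be told apart, and p-values measure the spread between mice.

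Class 3 semaphorins are secreted guidance cues for growing axons and vessels. Most of them, among them *Sema3a*, *Sema3c* and *Sema3f*, bind a neuropilin (*Nrp1* or *Nrp2*), which recruits a plexin of class A as the signaling part of the receptor. *Sema3e* differs in that it binds *Plxnd1* without a neuropilin. *Plxnd1* is best known from endothelial cells, and in the developing retina *Sema3e* made by neurons acts on *Plxnd1* at the front of the growing vessels. In OIR, vessels of the central retina are lost under oxygen, and after the return to room air the hypoxic retina forms new vessels, some of them growing toward the vitreous.

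The sequences shown are those upstream of the members that passed the test in any comparison. These are *Plxnd1*, at chr6:115954811-115995339, and *Sema3c*, at chr5:17574816-17730268, in the RefSeq annotation of GRCm38. The 250 bases before the start that RefSeq gives are printed 5′ to 3′ on the strand of the gene, at chr6:115995006-115995255 (minus strand) for *Plxnd1* and at chr5:17574566-17574815 (plus strand) for *Sema3c*. The annotated span of *Plxnd1* reaches beyond its window, so a transcript with an earlier start is annotated. Capitals mark 3 motifs searched on both strands, ACGTG (the core of the hypoxia response element), CCGGAA (bound by ETS factors, many of them endothelial) and GGGCGG (the GC box).
Plxnd1: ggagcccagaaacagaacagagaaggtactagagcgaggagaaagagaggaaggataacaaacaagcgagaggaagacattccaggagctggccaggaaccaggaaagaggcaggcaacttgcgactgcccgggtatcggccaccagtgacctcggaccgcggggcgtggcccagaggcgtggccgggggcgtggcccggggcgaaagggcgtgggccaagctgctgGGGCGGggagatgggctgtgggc
Sema3c: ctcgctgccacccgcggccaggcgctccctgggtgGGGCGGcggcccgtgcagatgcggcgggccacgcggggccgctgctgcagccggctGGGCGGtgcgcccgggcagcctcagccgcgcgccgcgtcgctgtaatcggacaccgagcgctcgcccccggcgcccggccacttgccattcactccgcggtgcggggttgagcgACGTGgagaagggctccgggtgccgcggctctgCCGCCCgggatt
The *Plxnd1* window holds GGGCGG at 1 position and neither of the other motifs, and the *Sema3c* window holds GGGCGG at 3 positions and ACGTG at 1. Of 32851 promoter windows of the same length, 16.6% hold ACGTG, 12.0% CCGGAA and 32.7% GGGCGG, so none of these matches is rare. They are letters in a window and not binding sites.

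A value below is the log2 ratio of the retina signal to the reference signal of a probe, so that 0 means the same signal in both and 1 a doubled signal in the retina. The labels state that the retina carried Cy5, but the rod genes *Sag* and *Gnat1* had more signal in Cy3 than in Cy5 on each of 77 arrays, by at least 4.39 and 5.58 on the log2 scale. Most cells of the retina are rods, so Cy3 was taken as the retina throughout, and the direction of each value is opposite to that of the labels. On each array, 13801 to 34328 of 55681 probes had a retina signal well above background. This number followed the scan, with a median of 32076 on 32 arrays of 1 scan date and between 15989 and 20492 on the other 3. Of the arrays, 14 had a median correlation under 0.9 with the other arrays of their group (1 to 4 in each group), and several results below are also given without them.

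*Plxna1*, *Plxna2*, *Plxna4*, *Plxnd1* and *Sema3f* were well above background on 77 of 77 arrays with their brightest probe. *Sema3e* was so on 60 of 77 arrays, *Sema3a* on 56 and *Sema3c* on 32. *Sema3g*, a ligand known from arterial endothelium, was well above background on 9 arrays, all of P28, so no difference is given for it on P12 or P17, although its probe counts among the 13. The second probes of *Sema3a*, *Sema3c* and *Plxna4* exceeded background on 14, 2 and 2 arrays, and no member was saturated.

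*Plxnd1* was the member that changed with OIR, and it did so on P17. In control mice of P17 its log2 ratio lay between −1.51 and −0.80 with a median of −1.13. In OIR mice of the same day it lay between −0.20 and 0.94 with a median of 0.35. All 13 OIR mice were above all 12 control mice of the day, and the lowest of them was level with the highest P12 control mouse (both at −0.20), which was the highest mouse of the other groups. The mean rose from −1.11 ± 0.19 (SD, n = 12) to 0.32 ± 0.29 (SD, n = 13), a difference of 1.42 on the log2 scale (SE 0.095, 95% confidence interval 1.23 to 1.62, adjusted p = 1.459e-09 in limma), or 2.68-fold.

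**Figure D1:**
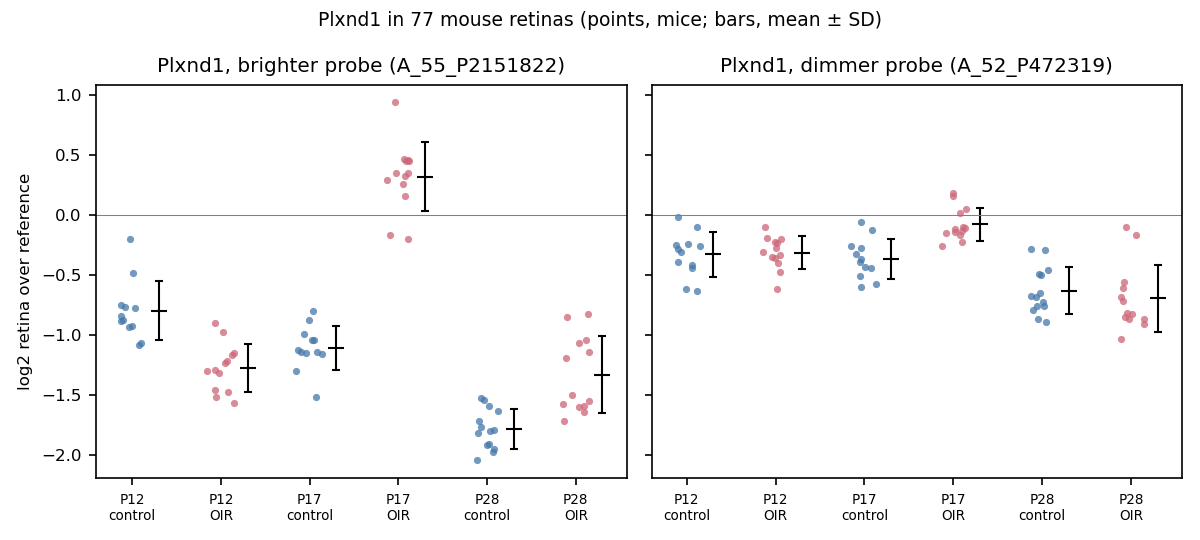
Log2 ratio of retina to reference for the 2 probes of Plxnd1 in each of 77 mice (points) by day and group, with the mean ± SD beside them. With the brighter probe all P17 OIR mice lie above all P17 control mice, with means of 0.32 and −1.11, and with the dimmer probe the same groups overlap, with means of −0.08 and −0.36.

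On P12, at the end of the oxygen exposure, the difference in *Plxnd1* was negative and narrowly missed the test. Its log2 ratio lay between −1.08 and −0.20 with a median of −0.86 in controls and between −1.56 and −0.90 with a median of −1.29 in OIR mice. The groups overlapped, although every OIR mouse (13 of 13) was below the median of the controls. The difference was −0.47 (SE 0.087, 95% confidence interval −0.65 to −0.30), or 1.39-fold lower, and its adjusted p of 0.05005 in limma missed the threshold of 0.05. The adjusted p was between 2.549e-06 and 0.1096 in 8 alternatives of the processing, 7 of which called it, while without the 14 arrays of low correlation the difference of −0.40 did not pass.

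On P28 the difference in *Plxnd1* was positive and missed the test as well. Its log2 ratio lay between −2.04 and −1.52 with a median of −1.80 in controls and between −1.71 and −0.83 with a median of −1.50 in OIR mice, so that every OIR mouse (13 of 13) exceeded the median of the controls and the ranges overlapped. The difference was 0.45 (SE 0.094, 95% confidence interval 0.26 to 0.65), or 1.37-fold, and its adjusted p of 0.0617 missed the threshold, whereas all 8 alternatives called it with an adjusted p of at most 0.0431. The OIR mice of P28 were spread wider (SD 0.32) than the controls (SD 0.16). Their values fell into separate ranges, −1.71 to −1.50 and −1.19 to −0.83, with no mouse between. The lower range overlapped that of the controls and the upper did not. The cause of this spread was not tested.

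The effect of OIR on *Plxnd1* differed between the days, and the differences themselves passed the test in the model over all 6 groups. From P12 to P17 it rose by 1.90 on the log2 scale (SE 0.13, adjusted p = 1.249e-18 in limma), and from P17 to P28 it fell by 0.97 (SE 0.13, adjusted p = 1.459e-06 in limma). In control mice the difference in *Plxnd1* from P12 to P17 was −0.31 (SE 0.097, adjusted p = 0.117 in limma, called in 6 of 8 alternatives). From P17 to P28 it fell by 0.68 (SE 0.093, adjusted p = 2.809e-07 in limma), with all 14 controls of P28 below all 12 controls of P17. The reference signal at this spot differed by −0.14 between these controls (adjusted p = 0.124 in limma). Ordered by mean, the 6 groups ran from P17 OIR (0.32) over P12 control (−0.80), P17 control (−1.11), P12 OIR (−1.27) and P28 OIR (−1.33) to P28 control (−1.78). Of the 5 neighboring pairs in this order, P17 control and P12 OIR, and P12 OIR and P28 OIR, were closer than the larger of their SDs.

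Arrays were hybridized on 11 slides that held mice of several groups. On the 7 slides with both OIR and control mice of P12, the difference in *Plxnd1* was negative on each, from −0.94 to −0.30. On the 6 such slides of P17 it was positive on each, from 1.19 to 1.80, and on the 3 of P28 from 0.37 to 0.67. The reference signal at the same spots differed between OIR and control mice by −0.02, −0.02 and 0.003 on P12, P17 and P28. The differences of the ratio were thus those of the retina channel.

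The second probe of *Plxnd1* shared the rise on P17 and the fall in controls from P17 to P28, and not the differences on P12 and P28. It was dimmer and well above background on 48 of 77 arrays, 5 of 12 controls and 11 of 13 OIR mice on P17. Its log2 ratio lay between −0.60 and −0.06 in P17 controls and between −0.25 and 0.18 in P17 OIR mice, with a difference of 0.29 (SE 0.059, adjusted p = 0.0105 in limma), called in all 8 alternatives. On P12 and P28 its differences were 0.02 (SE 0.063, adjusted p = 0.9999 in limma) and −0.06 (SE 0.089, adjusted p = 0.826 in limma), so the differences on P12 and P28 rest on the brighter probe. In controls it fell by 0.27 from P17 to P28 (adjusted p = 0.00872 in limma), but with slide as a block the difference was −0.15 and did not pass (adjusted p = 0.0535 in limma).

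Since *Plxnd1* is an endothelial receptor, marker genes of vessels were read on the same arrays, and fewer cells of a type and less RNA per cell cannot be told apart in whole retina. The mean over 10 endothelial genes lay between 0.19 and 0.70 in P17 controls and between 0.47 and 0.89 in P17 OIR mice, with 1 of the 10 (*Egfl7*, a secreted endothelial protein) higher by the test, by 1.09. *Tek* was never well above background in either group, and *Emcn* and *Erg* were not in controls. Of 5 genes of endothelial tip cells, the cells at the front of a sprout, 2 were higher on P17, *Esm1* by 1.56 and *Apln* by 1.42. Of 7 genes of mural cells, 2 were higher, *Cspg4* by 0.73 and *Notch3* by 0.63. Of 4 red blood cell genes 1 was higher. Among other cell types on P17, 2 of 5 microglia, 1 of 3 astrocyte and 1 of 5 Mueller glia genes (*Vim*) were higher. The remaining Mueller glia genes had negative differences, from −0.72 to −0.32, none of them called. Lower were 1 of 4 amacrine and 1 of 5 pigment epithelium genes, and 0 of 5 bipolar, 0 of 3 horizontal and 0 of 4 lens genes were called. On P12 the endothelial mean lay between 0.34 and 0.63 in controls and between 0.08 and 0.38 in OIR mice, with *Egfl7* lower by the test, and on P28 between 0.28 and 0.43 and between 0.22 and 0.54, with no endothelial gene called. Of the other lists, 1 mural gene (*Abcc9*) was lower on P12, by −0.37 (adjusted p = 0.000547 in limma), and 1 microglia gene (*Csf1r*) was higher on P28, by 0.41 (adjusted p = 0.0307 in limma). Relative to the endothelial mean of the same mouse, *Plxnd1* was at −1.54 ± 0.24 (SD, n = 12) in P17 controls and −0.33 ± 0.23 (SD, n = 13) in P17 OIR mice, with no overlap. That mean includes *Tek*, *Emcn* and *Erg*, which were not well above background in P17 controls. Its own averages were 0.44 in P17 controls and 0.65 in P17 OIR mice, a smaller step than that of *Egfl7* alone. The part of vessel cell number in the change of *Plxnd1* was not tested.

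**Figure D2:**
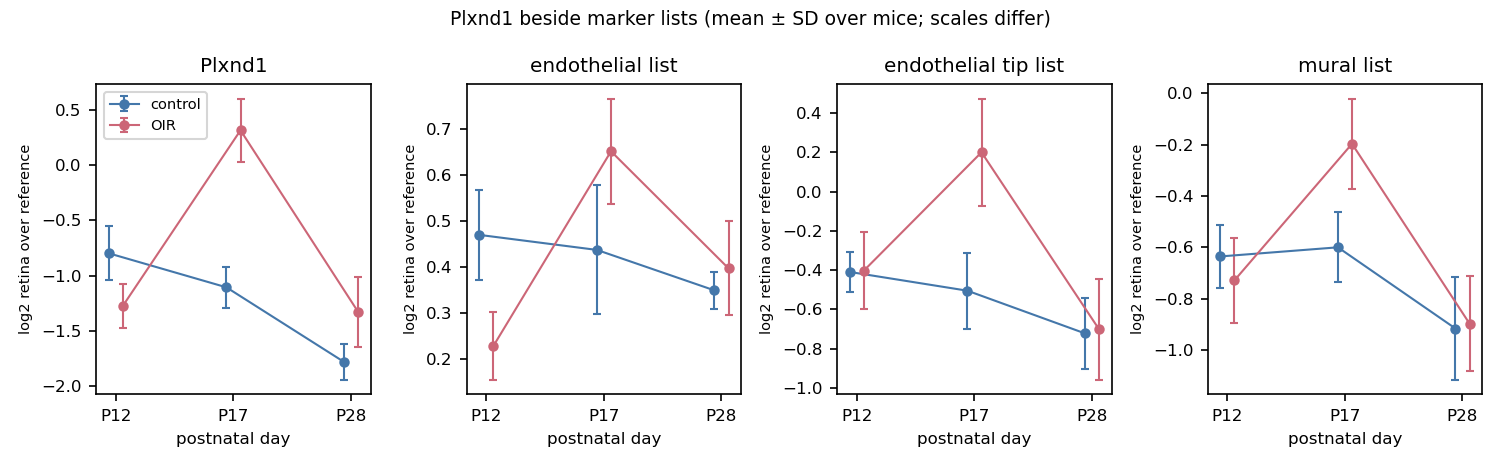
Mean ± SD over mice of the log2 ratio of retina to reference for Plxnd1 and for the mean over endothelial, endothelial tip and mural genes, by postnatal day, in control and OIR mice. In each panel the OIR mean of P17 is the highest point, at 0.32 for Plxnd1 and 0.65 for the endothelial list.

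The genes whose brightest probe followed *Plxnd1* most closely over the 77 arrays were *Tagln2*, an actin-binding protein (Pearson's r = 0.973), *Cd34*, a surface protein of endothelial and progenitor cells (r = 0.949), and *Fn1*, fibronectin (r = 0.931). These correlations describe arrays that share days, groups and slides. On P17 all of these genes were higher in OIR mice, *Tagln2* by 1.96 (adjusted p = 2.721e-09 in limma), *Fn1* by 1.76 (adjusted p = 5.884e-09 in limma) and *Cd34* by 1.33 (adjusted p = 4.32e-08 in limma). On P12 *Cd34* and *Fn1* were lower, by −0.81 and −0.61, and passed the test. *Tagln2*, at −0.38 on that day, did not (adjusted p = 0.9999 in limma). On P28 *Tagln2* and *Fn1* were higher, by 0.56 and 0.67, and passed (adjusted p = 0.00614 and 0.00767 in limma). *Cd34*, at 0.26 on P28, did not (adjusted p = 0.682 in limma).

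No other member passed the test in a comparison of OIR and control mice. On P12, 0 of 13 member probes were called (1 at an unadjusted p under 0.05), against 0.0216% of all probes. On P17, 2 of 13 were called, both of *Plxnd1*, against 1.14%, and on P28, 0 of 13 (1 at an unadjusted p under 0.05), against 0.0611%. For the change of the OIR effect, 1 of 13 was called from P12 to P17 against 0.487% of all probes, and 1 of 13 from P17 to P28 against 0.278%, the brighter *Plxnd1* probe in both. Over the brightest probes of the other members the differences ran from −0.24 to 0.18 on P12, from −0.24 to 0.12 on P17 and from −0.25 to 0.26 on P28, and their 95% confidence intervals reached no further than −0.66 and 0.68. The median over the members with signal, *Plxnd1* included, was −0.03, 0.03 and −0.03 on the 3 days, and that of all probes was below 0.01 in size.

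**Figure D3:**
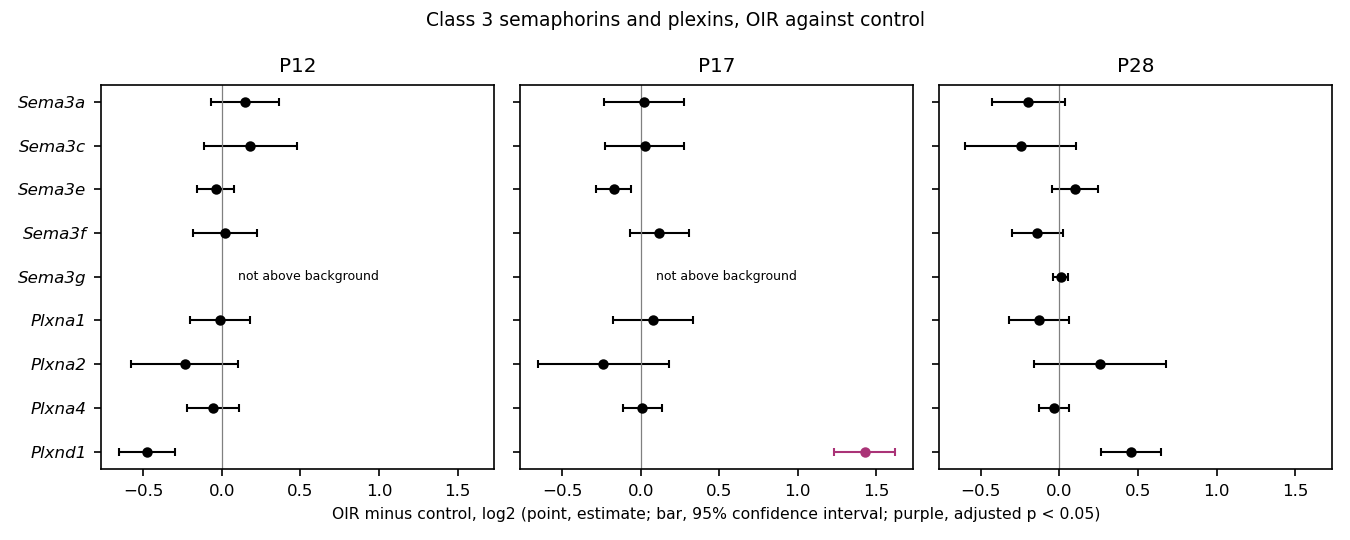
Difference between OIR and control mice in the log2 ratio of retina to reference on P12, P17 and P28 for the brightest probe of each of 9 genes, as estimate with 95% confidence interval. Plxnd1 on P17 at 1.42 is the single estimate that passed the test, and Sema3g is not shown on days when it was not well above background.

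*Sema3e*, the ligand of *Plxnd1*, did not pass the test on any day. On P17 its log2 ratio lay between −0.02 and 0.61 with a median of 0.10 in controls and between −0.12 and 0.12 with a median of −0.02 in OIR mice. The ranges overlapped, and 12 of 13 OIR mice were below the median of the controls. The difference of −0.17 (SE 0.054, 95% confidence interval −0.28 to −0.06) had an adjusted p of 0.160 in limma, but it passed with the deposited ratio, at −0.76 (adjusted p = 0.0241 in limma), and without background subtraction, at −0.27 (adjusted p = 0.0434 in limma). The probe was well above background in 10 of 12 controls and 7 of 13 OIR mice of P17. *Sema3e* is made by neurons, and of 10 ganglion cell genes 1 (*Nefl*) was lower on P17. Differences in that list ran from −0.77 to 0.31 (median −0.32), and the median was −0.49 for amacrine and −0.42 for bipolar genes. The mean of the ganglion cell list was 1.48 ± 0.28 (SD, n = 12) in controls and 1.22 ± 0.11 (SD, n = 13) in OIR mice. The part of these cell types in the *Sema3e* values was not tested. On P12 the means of *Sema3e* were 0.05 ± 0.19 (SD, n = 12) and 0.01 ± 0.09 (SD, n = 13), and on P28 0.25 ± 0.16 (SD, n = 14) and 0.35 ± 0.22 (SD, n = 13). From P17 to P28 its OIR effect changed by 0.27 (SE 0.089, adjusted p = 0.208 in limma), and by 0.27 without the 14 arrays of low correlation, where it passed (adjusted p = 0.0206 in limma). The scan date with the most probes above background held more control than OIR mice of P17, the highest control (0.61) among them. On P28 it held more OIR than control mice. With slide as a block, neither the P17 difference of *Sema3e* nor this change passed.

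*Sema3a*, a repulsive cue for axons and vessels, and *Sema3c* both had means below the reference level in every group. The highest single mice, both P12 OIR, were at 0.03 and 0.26. *Sema3a* lay between −1.30 and −0.25 in P17 controls, with a median of −0.64, and between −1.34 and −0.44 in P17 OIR mice, with a median of −0.59. *Sema3c* lay between −1.31 and −0.17 with a median of −0.92 in P17 controls and between −1.53 and −0.50 with a median of −0.76 in P17 OIR mice. For both genes the ranges of OIR and control mice overlapped on each day. Both genes had their lowest means on P28, −1.03 and −1.23 in control and OIR mice for *Sema3a* and −1.46 and −1.70 for *Sema3c*. *Sema3c* fell by 0.58 in control mice from P17 to P28 (SE 0.15, adjusted p = 0.00488 in limma), with 11 of 14 mice below the P17 median, while the difference of −0.30 in *Sema3a* (SE 0.12, adjusted p = 0.0695 in limma), with 13 of 14 mice below it, did not pass. It was called in 3 of 8 alternatives, with probes well above background, with array weights (−0.44, adjusted p = 0.000148 in limma) and without the 14 arrays of low correlation (−0.44, adjusted p = 0.000211 in limma). With slide as a block the fall of *Sema3c* was 0.35 and passed (adjusted p = 0.00602 in limma). The *Sema3c* probe was well above background in 5 of 12 P17 and 9 of 14 P28 controls. Its second probe differed by −0.08 between these controls (adjusted p = 0.313 in limma). On the scan date with the most probes above background, P17 controls lay between −1.31 and −0.87 and P28 controls between −1.89 and −1.40. On another scan date both groups lay between −1.19 and −0.84.

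*Sema3f*, a ligand that signals through *Nrp2*, was above the reference level in every mouse and did not pass the test on any day. Its means ran from 1.91 ± 0.11 (SD, n = 13) in P28 OIR mice to 2.31 ± 0.16 (SD, n = 13) in P17 OIR mice, with the controls between 2.05 and 2.19. All neighbors in that order were closer than the larger of their SDs. Among the genes that followed *Sema3f* most closely over the arrays were *Pde6a*, a part of rod phototransduction (r = 0.831), and the nuclear receptor gene *Esrrb* (r = 0.816).

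Among the class A plexins, the receptors that pair with neuropilins, none passed the test on any day. *Plxna2* ranged from 1.17 to 3.31 with a median of 2.22 in P17 controls and from 1.62 to 2.71 with a median of 2.12 in P17 OIR mice. On P12 its medians were 2.90 in controls and 2.57 in OIR mice, and on P28 they were 2.68 and 2.87. On each day the ranges of both groups overlapped, and SDs of up to 0.66 made *Plxna2* the most variable of the plexins. The OIR effect on *Plxna2* changed by 0.49 from P17 to P28 (SE 0.28, adjusted p = 0.389 in limma), and by 0.62 without the 14 arrays of low correlation, where it passed (adjusted p = 0.0452 in limma). *Plxna1* means lay between −0.29 and 0.10 over the 6 groups with SDs of 0.20 to 0.37. *Plxna4* means were 0.59 ± 0.16 (SD, n = 12) and 0.54 ± 0.24 (SD, n = 13) in control and OIR mice of P12, 0.37 ± 0.17 (SD, n = 12) and 0.38 ± 0.13 (SD, n = 13) on P17, and 0.30 ± 0.08 (SD, n = 14) and 0.26 ± 0.15 (SD, n = 13) on P28.

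**Figure D4:**
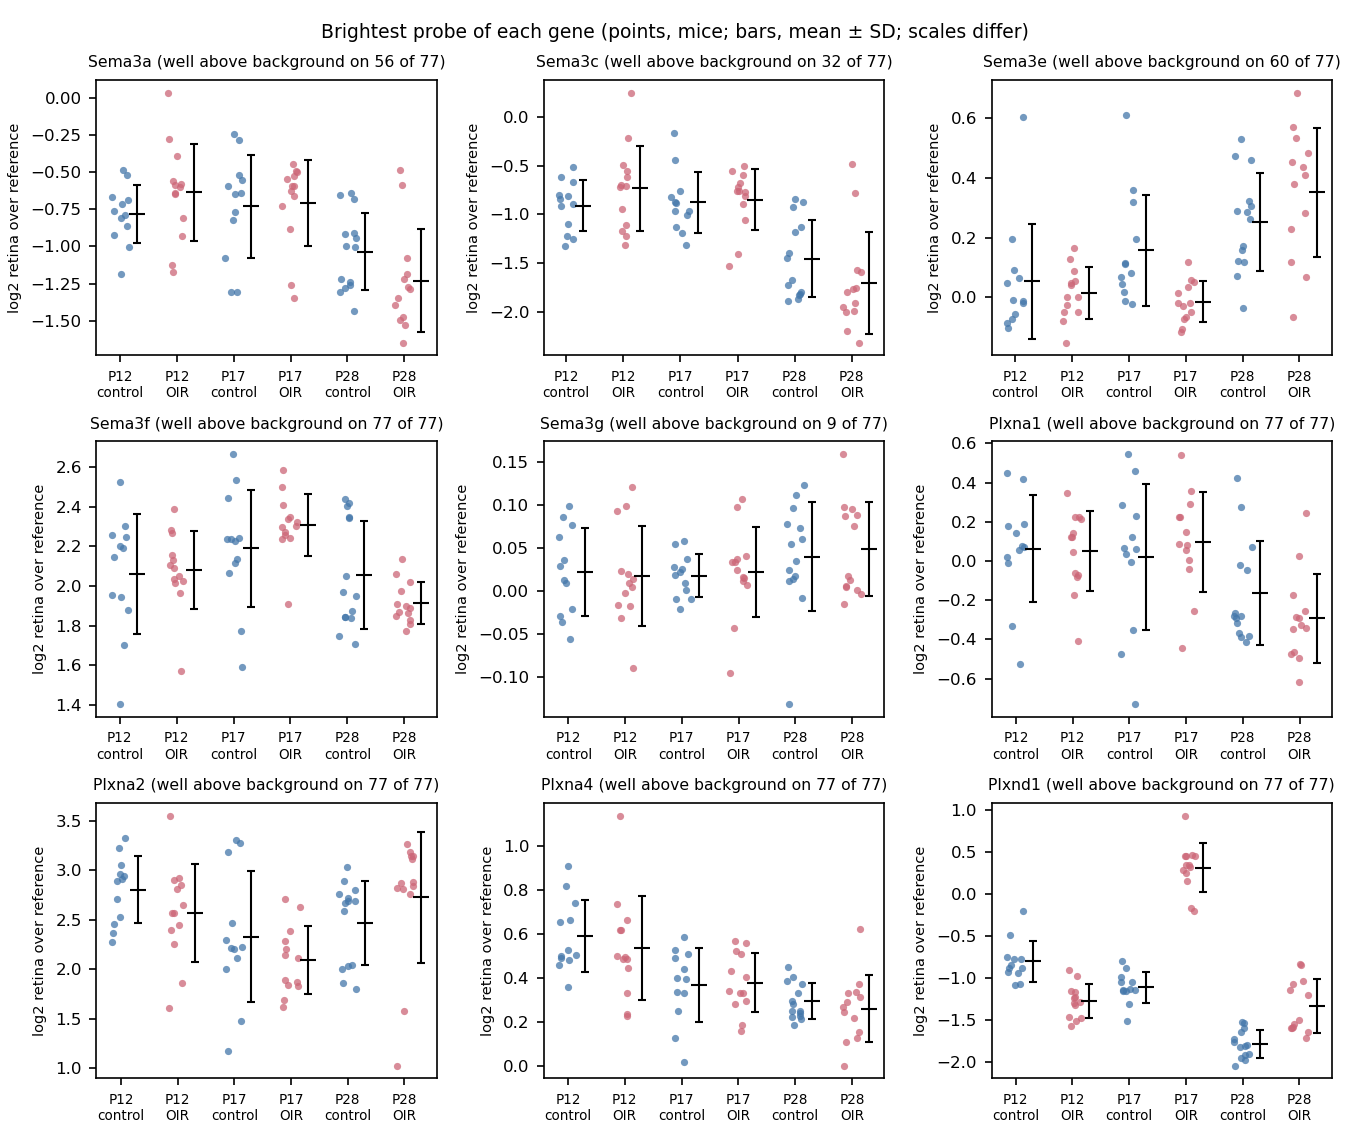
Log2 ratio of retina to reference of the brightest probe of each gene in 77 mice (points), by day and group, with the mean ± SD beside them and a scale of its own in each panel. OIR and control mice of a day overlap in every panel except that of Plxnd1 on P17.

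In control mice, maturation from P12 to P17 changed 0 of 13 member probes (3 at an unadjusted p under 0.05), against 1.28% of all probes. Beside that of *Plxnd1*, given above, the largest estimates were those of *Plxna2*, at −0.47 (SE 0.20, adjusted p = 0.440 in limma), and *Plxna4*, at −0.22 (SE 0.066, adjusted p = 0.0693 in limma), and each of these passed in 5 of 8 alternatives. From P17 to P28, 3 of 13 member probes were called, all lower (2 of *Plxnd1* and 1 of *Sema3c*), against 13.4% of all probes. Without the 14 arrays of low correlation, 10 of 13 were called, against 32.2% of all probes. Most P28 arrays were scanned on the date with the higher number of probes above background, so age and scan overlap in this comparison. The same date held more control than OIR mice of P17, and more OIR than control mice of P28.

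The other genes of the pathway were read from a list of 41 genes, of which 40 were well above background on some array of P17. On P12, 0 of 41 were called, on P17, 5 of 41, all higher, against 1.14% of all probes, and on P28, 0 of 41. All probes include many near background, and with only probes well above background tested, 4.09% of them were called on P17. The median of the list on P17 was −0.01, beside 0.001 for all probes. *Sema3b*, a class 3 ligand, was higher in OIR mice by 0.43 (SE 0.069, adjusted p = 0.000706 in limma), with a range of −0.17 to 0.001 in controls and of −0.04 to 0.79 in OIR mice. *Plxnb2*, a receptor of class 4 semaphorins, was higher by 0.46 (SE 0.075, adjusted p = 0.000823 in limma). Downstream of plexins, the small GTPase *Rras*, a target of the plexin GAP domain, was higher by 0.84 (SE 0.19, adjusted p = 0.0268 in limma). The oxidoreductase *Mical1* was higher by 0.37 (SE 0.083, adjusted p = 0.0204 in limma) and the exchange factor *Farp1* by 0.41 (SE 0.091, adjusted p = 0.0193 in limma). With slide as a block *Mical1* and *Farp1* missed the threshold (adjusted p = 0.0524 and 0.0516 in limma). For *Sema3b* the OIR effect was larger on P17 than on P12 by 0.40 (SE 0.095, adjusted p = 0.0178 in limma), a call lost without the 14 arrays of low correlation (0.28, adjusted p = 0.0974 in limma).

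The neuropilins did not pass the test on any day. *Nrp2* was well above background on every array, with means of −1.58 ± 0.19 (SD, n = 12) in P17 controls and −1.44 ± 0.18 (SD, n = 13) in P17 OIR mice, and 12 of 13 OIR mice exceeded the median of the controls. The difference was 0.15 (SE 0.073, 95% confidence interval −0.003 to 0.30, adjusted p = 0.491 in limma). *Nrp1* was well above background on 2 of 25 arrays of P17, and its difference of 0.06 (SE 0.036, adjusted p = 0.583 in limma) comes from signals near background. Of the 13 semaphorins of classes 4 to 7, 0 were called on P17, with differences from −0.36 to 0.18.

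**Figure D5:**
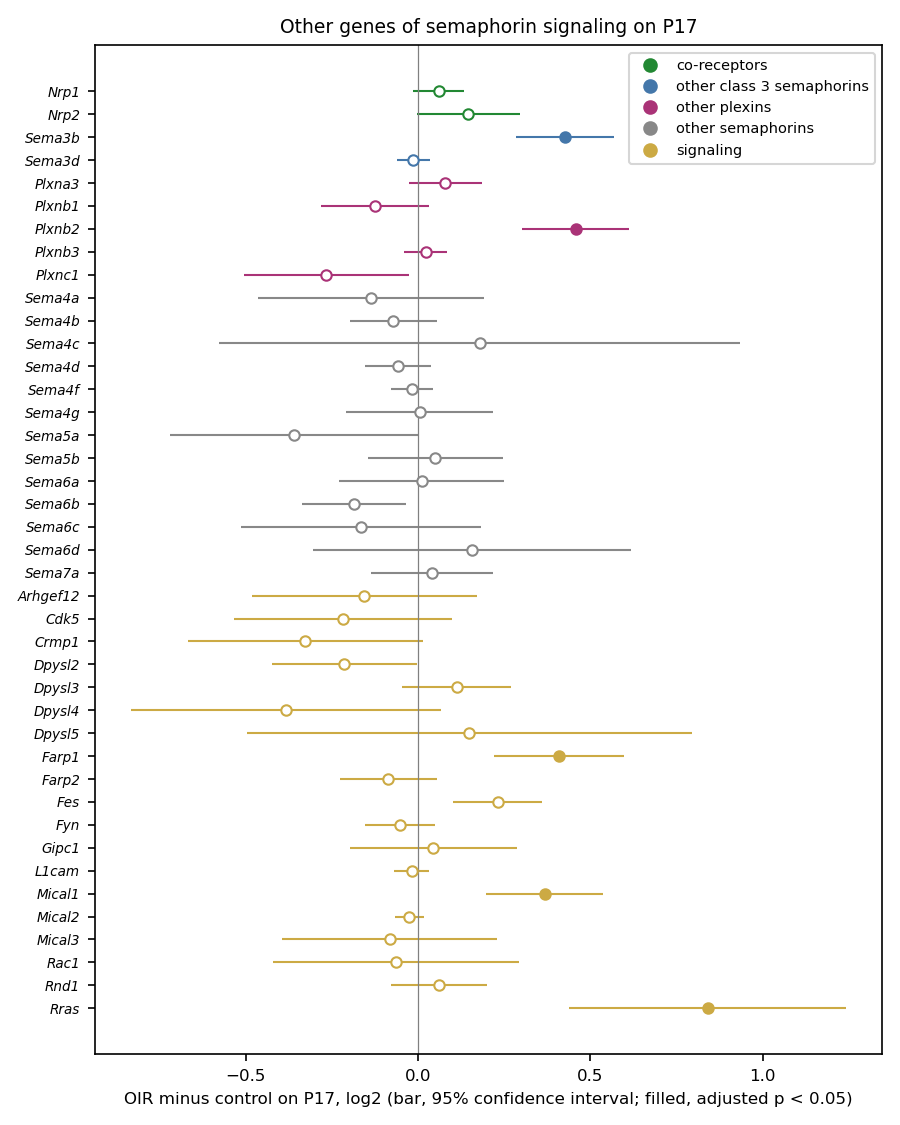
Difference between OIR and control mice of P17 in the log2 ratio of retina to reference for 41 other genes of semaphorin signaling, with 95% confidence intervals, colored by role. Filled points passed the test, and these are Rras at 0.84, Plxnb2 at 0.46, Sema3b at 0.43, Farp1 at 0.41 and Mical1 at 0.37.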

How the data were processed

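Retina RNA was measured on 77 Agilent 8x60K arrays, 1 per mouse. The authors scanned the arrays, and per the file headers Feature Extraction 10.7.3.1 gave the median signal and median background of each spot as intensity, without normalization, and processed signals as intensity after background subtraction and dye normalization. The deposited table gives log2 ratios of these processed signals, Cy3 over Cy5 (100% of single-spot probes within 0.001 on each array), without further centering. Here, median signals were corrected with normexp (offset 50) and loess in limma 3.58.1 (R 4.3.3). Spots marked as outliers (0.592 to 0.951% of 62976 per array) were left out, and spots of 1 probe averaged. All 55681 probes were tested without a filter, 28026 of them with a symbol through RefSeq (GRCm38.p6). OIR and control mice of a day were compared in a fit of their own, and days in a model over 6 groups, with moderated statistics in limma and the Benjamini-Hochberg adjustment. Called means adjusted p under 0.05. A gene of a list entered with its brightest probe. Genes named are the members, list genes passing an OIR comparison, the neuropilins, and the 3 genes most correlated with a member among probes well above background on at least 50% of arrays, 1 of which is not reported here. Other lists read were amacrine, horizontal, bipolar, Mueller glia, astrocyte, microglia, pigment epithelium and lens markers. The members and lists were chosen with earlier results of these data known. The procedure was tested on simulated data of independent values without effects of slide, scan or litter. The changes put in were larger than most differences given here, so that test does not cover smaller ones. The number of mice limits the precision, with a median SD of a probe between mice of 0.077, 0.080 and 0.089 on P12, P17 and P28. Members with signal varied more, with an SD in a group of up to 0.66 (*Plxna2*) and of 0.16 to 0.32 for the brighter *Plxnd1* probe. Alternatives were the deposited ratio, no background subtraction, the retina channel alone, probes well above background, slide as a block, array weights, another set of groups in the fit and, added after the data were seen, leaving out 14 arrays of low correlation.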

Additional observations from a re-analysis of the deposited data

Results flagged for a closer look

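The effect of OIR on *Plxnd1* differed between days by a test of the difference itself, with the brighter probe. Its change from P12 to P17 was 1.90 (SE 0.13, adjusted p = 1.249e-18 in limma) and its change from P17 to P28 was −0.97 (SE 0.13, adjusted p = 1.459e-06 in limma), both on the log2 scale. With the dimmer probe of the same gene the changes were 0.27 (SE 0.11, adjusted p = 0.701 in limma) and −0.35 (SE 0.10, adjusted p = 0.162 in limma). The first passed in 1 of 8 alternatives, with the deposited ratio (1.64, adjusted p = 4.565e-05 in limma). The second passed in 2 of 8, with array weights (−0.32, adjusted p = 0.0398 in limma) and without the 14 arrays of low correlation (−0.37, adjusted p = 0.0121 in limma), and was −0.73 at its largest.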

How the results depend on the processing

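The rise of *Plxnd1* on P17 passed in all 8 alternatives, between 1.42 and 1.80 for the brighter probe and between 0.22 and 1.22 for the dimmer one, as did the changes of its OIR effect between days for the brighter probe. On P12, where 0 member probes were called, 1 (*Plxnd1*) was called in each of 7 alternatives, and on P28 1 (*Plxnd1*) in each of 8. The change of the OIR effect from P12 to P17 gave 2 calls with the deposited ratio, and that from P17 to P28 gave 2 with array weights and 4 without the 14 arrays of low correlation. For control mice from P12 to P17, in place of 0, there were 2 calls with the deposited ratio, without background subtraction and with probes well above background, 3 with the retina channel alone, slide as a block and array weights, and 1 without the 14 arrays. From P17 to P28 there were 10 in place of 3 with array weights and without the 14 arrays, where the share of all probes called rose as well, from 13.4% to 34.1% and 32.2%. The cause was not tested. The dimmer *Plxnd1* probe, not called on these days, turned in direction on P12, from 0.02 to −0.43 with the deposited ratio and to −0.017, −0.020 and −0.033 without background subtraction, with the retina channel alone and with slide as a block. On P28 it turned from −0.06 to 0.48 with the deposited ratio and 0.16 with the retina channel alone, and in controls from P12 to P17 from −0.03 to 0.0063 with the retina channel alone. *Nrp1* on P17 turned from 0.06 to −0.033 with the retina channel alone. Of the 21 uncalled OIR differences of the other members with signal, between 0 and 7 changed sign in an alternative, and 1 (*Sema3e* on P17) passed with the deposited ratio and 1 without background subtraction. No paired analysis was possible because each mouse carries a number of its own. Signals near background limit *Sema3g*, *Nrp1* and the second probes.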
